A study of Sus scrofa with 4 samples.

Results

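TPT1 encodes the translationally controlled tumour protein, a small and abundant cytosolic protein also called TCTP. Its transcript was examined in porcine oocytes at the M II stage, the arrest in the second meiotic metaphase at which the oocyte awaits fertilization. TPT1 is 1 of the 4381 gene symbols listed in the counts and 1 of the 2387 genes tested. It was chosen by its own counts in these libraries, so its levels and fold change are given as a description and no test of TPT1 was made. RNA was sequenced from 4 libraries with 150-bp paired-end reads. In the control group, 2 libraries came from oocytes matured in vitro for 42 to 44 h within their cumulus-oocyte complexes. In the SIRT6-inhibited group, 2 libraries came from oocytes matured in the same way in medium with SIRT6-IN-1 at 100 μM. This compound inhibits the deacylase SIRT6, enters cells and was dissolved in DMSO. Whether the control medium also held DMSO was not given in the sources used here. The ovaries of both groups came from an abattoir, and 100 oocytes were collected per group. How many oocytes entered each library, and whether the libraries of a group came from separate cultures, was not given, so the errors and p-values measure the spread between these libraries, which may be technical.

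TPT1 mRNA begins with a 5′ terminal oligopyrimidine (TOP) tract, as do the mRNAs of the ribosomal proteins and of several translation factors, and through this tract the kinase mTOR and the RNA-binding protein LARP1 control translation and stability of the whole class. The protein binds tubulin and the spindle, is a substrate of the kinase PLK1, and interacts with the survival proteins MCL1 and BCL-XL. A fully grown oocyte makes almost no new RNA while it matures, so the level of a transcript at M II reflects mostly the store laid down during growth and how much of it has since been degraded.

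In the RefSeq annotation of the porcine assembly Sscrofa11.1, TPT1 lies on chromosome 11 from 21929294 to 21932905, a span of 3612 bp. The submitters' processing notes list susScr11, which is this assembly, and the mouse build mm10, without saying what each was used for. The annotation places a pair of pseudogene records 6142 and 8487 bp from TPT1, and a long noncoding RNA record 35984 bp away. TPT1 has many near-identical processed pseudogenes in mammalian genomes, and how reads with several matches and the strand of reads were treated was not given in the sources used here. The TPT1 count is therefore uncertain in its absolute size. Totals on the listed genes were 4646129 and 3405960 counts in control replicates 1 and 2, and 3239200 and 4972602 counts in SIRT6-inhibited replicates 1 and 2. Control replicates 1 and 2 had a count for 2411 and 2689 genes, and SIRT6-inhibited replicates 1 and 2 for 2277 and 2320. The number of detected genes thus moved with the group, and its part in the results below was not tested.

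TPT1 was lower in each SIRT6-inhibited library than in any control library. It had 609 and 598 counts in control replicates 1 and 2, and 128 and 123 counts in SIRT6-inhibited replicates 1 and 2. Relative to the library total, in CPM, TPT1 stood at 131 in control replicate 1 (95% Clopper-Pearson interval 121 to 142) and 176 in control replicate 2 (162 to 190). It stood at 39.5 in SIRT6-inhibited replicate 1 (33.0 to 47.0) and 24.7 in SIRT6-inhibited replicate 2 (20.6 to 29.5). Only counting error is in these intervals, since reads copied by PCR are not separate molecules. The intervals describe single libraries and are no test between the groups, and those of libraries of the same group also lay apart from each other. After scaling with edgeR's TMM factors, which correct for the composition of each library, TPT1 reached 131 and 168 normalized CPM in control oocytes, against 39.7 and 25.6 normalized CPM after SIRT6 inhibition. Group means were 149.8 ± 26.0 normalized CPM for control oocytes (SD, n = 2) and 32.7 ± 9.999 for SIRT6-inhibited oocytes (SD, n = 2). The log2 fold change (log2FC, always SIRT6-inhibited minus control) was -2.20 with a standard error (SE) of 0.35, which is a 4.60-fold lower level after SIRT6 inhibition. Compared library by library, the control level was 3.31 times that of SIRT6-inhibited replicate 1 and 5.13 times that of SIRT6-inhibited replicate 2 when control replicate 1 was the base, and 4.23 and 6.57 times when control replicate 2 was. In bulk RNA of this kind, fewer cells of a type and less RNA per cell cannot be told apart.

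**Figure D1:**
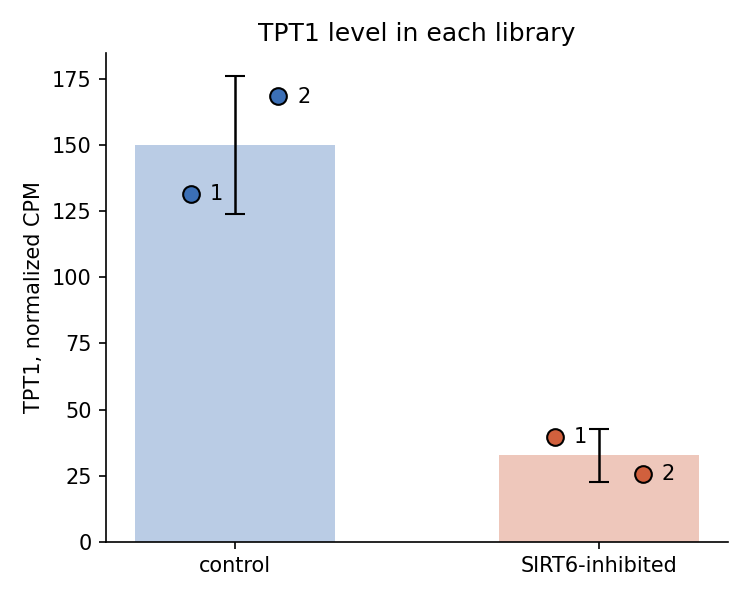
TPT1 level (y axis, normalized CPM, from 0) in each group (x axis). Points are libraries with their replicate number, bars are group means and error bars are the SD of 2 libraries. Control libraries were at 131 and 168 normalized CPM and SIRT6-inhibited libraries at 39.7 and 25.6.

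TPT1 was lower in SIRT6-inhibited oocytes with every scaling tried. The log2FC was -2.18 (SE 0.36) with RLE factors, -2.19 (0.36) with upper-quartile factors and -2.26 (0.36) with library totals alone. It was -2.23 (0.37) when the 10 most abundant genes were left out of the totals, and -2.23 (0.41) when the libraries were scaled by the sum of 8 reference genes. Most of that sum came from the reference gene TOP2B, with 16603 and 10505 counts in control replicates 1 and 2. TOP2B had 10654 and 17878 counts in SIRT6-inhibited replicates 1 and 2. The smallest difference among the scalings was -1.95 (SE 0.60), found when each library was divided by its count of GAPDH, a glycolytic enzyme often used as a reference. GAPDH had 265 and 266 counts in control replicates 1 and 2 and 150 and 367 in SIRT6-inhibited replicates 1 and 2. Dividing by these moved the median log2FC of all tested genes to 0.12, so that TPT1 lay -2.07 from that median. With TMM the median of all tested genes was -0.04 and TPT1 lay -2.16 from it. Leaving out any of the 4 libraries gave a TPT1 log2FC from -2.55 to -1.91. As the groups did not overlap, the direction was fixed in advance there, and only the size could move.

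**Figure D2:**
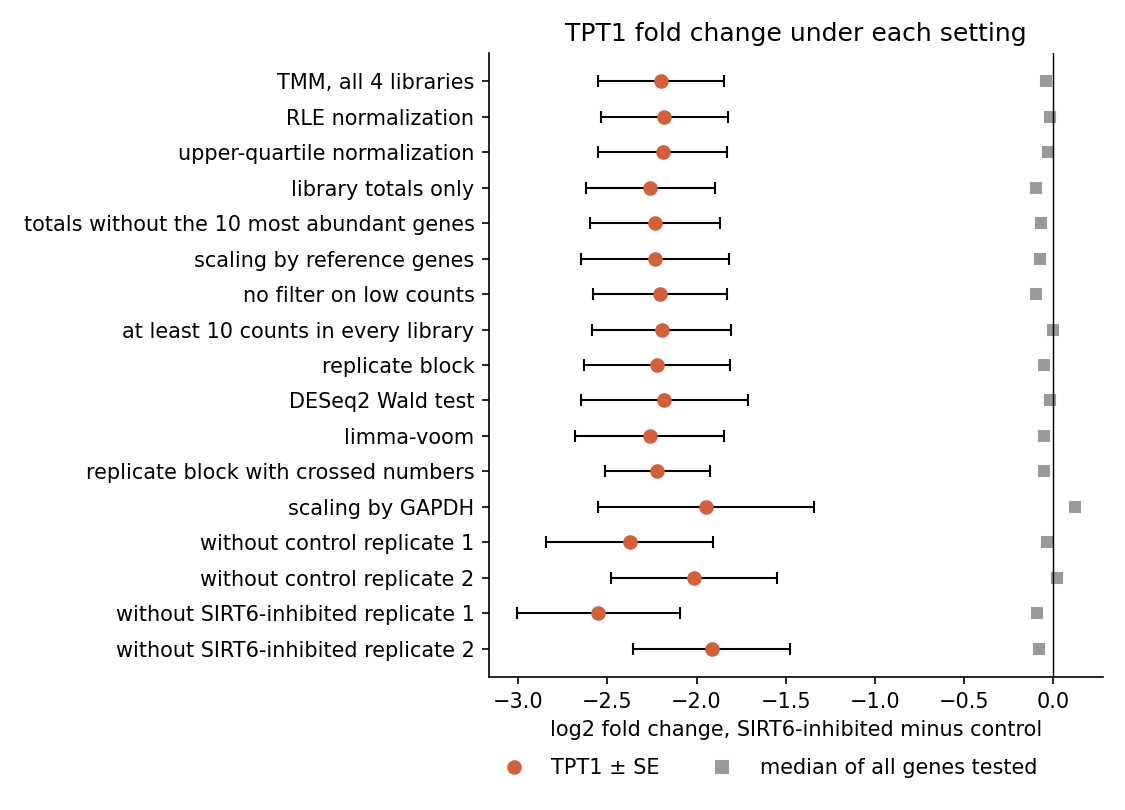
TPT1 log2FC (x axis, SIRT6-inhibited minus control) under each scaling, filter, tool and left-out library (y axis). Orange points are TPT1 with its standard error and grey squares are the median over all genes tested. TPT1 stayed between -2.55 and -1.91 in every setting drawn and was -2.20 with TMM and all 4 libraries.

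Ratios taken inside each library, which need no scaling between libraries, had the same order. Per 1000 counts of GAPDH, there were 2298 and 2248 counts of TPT1 in control replicates 1 and 2, and 853 and 335 in SIRT6-inhibited replicates 1 and 2. Per 1000 counts of PPIA, the reference gene that encodes cyclophilin A, there were 122 and 191 counts of TPT1 in control and 43.7 and 28.3 in SIRT6-inhibited libraries. EEF1A1, translation elongation factor 1-alpha, has a TOP mRNA of its own. Per 1000 counts of EEF1A1 the values were 116 and 117 in control and 37.7 and 21.5 in SIRT6-inhibited libraries, and the control libraries were here almost alike. Set against the summed counts of 49 listed ribosomal protein genes, TPT1 had 20.4 and 26.2 counts per 1000 in control and 7.41 and 4.85 in SIRT6-inhibited libraries. For the sum of 14 oocyte marker genes, the ratio was 1.10 and 1.43 per 1000 in control and 0.322 and 0.201 in SIRT6-inhibited libraries. The lower control library exceeded the higher SIRT6-inhibited library 2.63-fold for GAPDH, 2.78-fold for PPIA, 3.08-fold for EEF1A1, 2.76-fold for the ribosomal protein genes and 3.40-fold for the oocyte markers.

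GTF2F2, a subunit of the general transcription factor TFIIF, is the neighbouring gene of TPT1 that is listed in the counts, 54504 bp away. Control replicates 1 and 2 had 125 and 76 counts of it and each SIRT6-inhibited library had 97, with log2FC 0.06 (SE 0.66, edgeR's quasi-likelihood test, adjusted p = 0.994). The groups of GTF2F2 overlapped, unlike those of TPT1. The other neighbours within 200 kb were not analysed here.

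Libraries of the same group also differed in TPT1. On the log2 scale TPT1 differed by 0.35 between the control libraries and by 0.62 between the SIRT6-inhibited libraries, where the median over the 2387 tested genes was 0.39 and 0.44. For the 200 genes nearest to TPT1 in mean level, from 70.8 to 118 normalized CPM, these medians were 0.31 and 0.38. Their median log2FC was -0.08, 118 of the 200 being lower in the SIRT6-inhibited group, and 0 of them had a lower log2FC than TPT1. Of the 918 tested genes with a mean above that of TPT1, 0 had a lower log2FC. These means include the SIRT6-inhibited libraries, so the change of a gene enters its own mean. Over all 2387 genes, 121 had a lower fitted value, but 56 of these had 0 counts in both SIRT6-inhibited libraries, where the fitted value depends on the small count added by the model. The number 121 moved with the setting. It was 371 of 2586 and 389 of 2561 genes without SIRT6-inhibited replicates 1 and 2. Without control replicates 1 and 2 it was 184 of 2550 and 162 of 2522. It was 239 with the replicate block, 231 with the block of crossed numbers, 234 with limma-voom and 450 of 2923 with no filter. The other scalings gave from 120 to 128. Among the 1840 genes that had 10 or more counts in all 4 libraries, 16 had a lower log2FC than TPT1.

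Across all tested genes, 0% passed Benjamini-Hochberg adjustment in the quasi-likelihood test of edgeR. An unadjusted p below 0.05 was given to 216 genes, of which 143 were lower (5.99% of those tested) and 73 higher (3.06%) in SIRT6-inhibited oocytes. DESeq2's Wald test gave adjusted p below 0.05 to 37 genes and limma-voom to 0. Both SIRT6-inhibited libraries lay below both control libraries in 22.2% of the genes tested, and above both in 17.9%. These shares are the background for the counts of list members below. Lower genes made up 66.2% of the 216, and this share moved to 78.5% with scaling by the reference genes (139 lower and 38 higher) and to 86.7% with scaling by GAPDH (65 lower and 10 higher). It was 52.3% without control replicate 2 (58 lower and 53 higher), 60.1% without control replicate 1, 80.5% without SIRT6-inhibited replicate 1 and 74.5% without SIRT6-inhibited replicate 2.

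**Figure D3:**
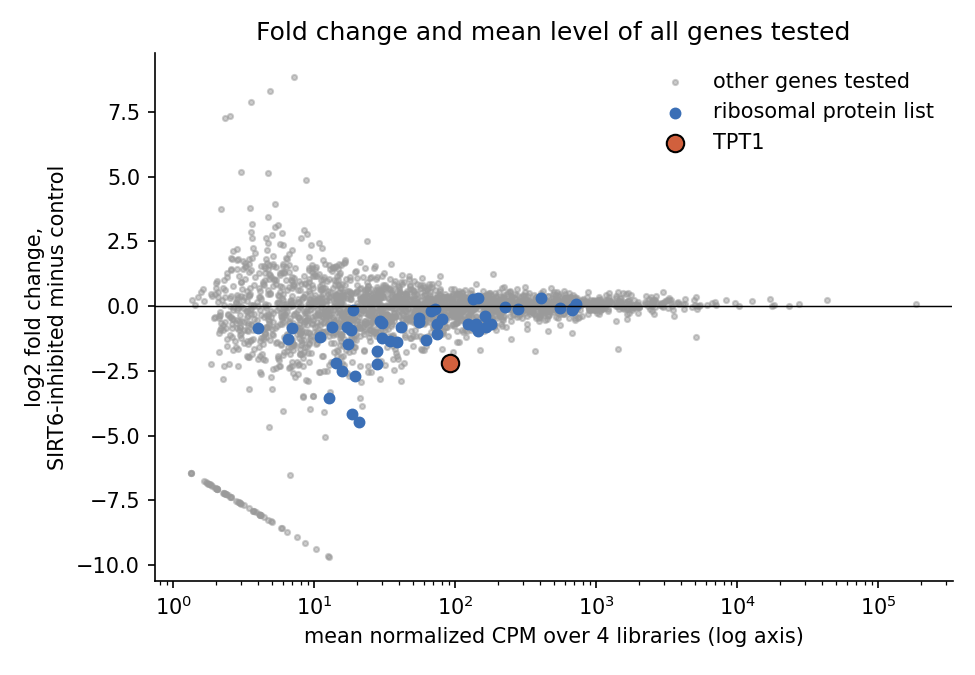
Log2 fold change (y axis, SIRT6-inhibited minus control) against the mean normalized CPM over 4 libraries (x axis, log scale) of the 2387 tested genes. TPT1 is orange, the ribosomal protein list blue and other genes grey. TPT1 lies below all 918 genes to its right. The line of grey points at the lower left holds genes with 0 counts in both SIRT6-inhibited libraries, whose fitted values are not bounds.

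Ribosomal proteins are the largest class of TOP mRNAs. Of 88 genes in the list 49 were listed in the counts and 47 were tested, and 43 of these were lower and 4 higher in SIRT6-inhibited oocytes. Scaling by GAPDH left 36 of 47 lower. The median log2FC was -0.79, against -0.04 over all tested genes. Non-overlapping groups were found in 27 lower and 2 higher genes, and 12 genes, all lower, had unadjusted p below 0.05, while 0 passed adjustment in edgeR's quasi-likelihood test, 1 (RPS26) in DESeq2's Wald test and 0 in limma-voom. In edgeR's quasi-likelihood test 8 passed without SIRT6-inhibited replicate 1, 1 without SIRT6-inhibited replicate 2 and 2 with no filter. The number 12 rested on which libraries were used, since it was 5 without control replicate 1, 1 without control replicate 2 and 19 without SIRT6-inhibited replicate 1. It was 3 with scaling by GAPDH. Together the listed genes of this class took 0.641% and 0.670% of the counts of control replicates 1 and 2, and 0.534% and 0.510% of those of SIRT6-inhibited replicates 1 and 2. TPT1 was further below its control level than the median of the class, and 7 of the 47 genes had a lower log2FC than TPT1, against 121 of all 2387 tested. Both counts are from the fit with TMM and all 4 libraries. Over all tested genes the count was 371 of 2586 and 389 of 2561 without SIRT6-inhibited replicates 1 and 2, and 239 with the replicate block.

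The ribosomal protein genes were also grouped by their mean level over all 4 libraries. The 18 genes with a mean under 30 normalized CPM had a median log2FC of -1.35, where all 1032 tested genes at that level had -0.29. From 30 to 100 normalized CPM, which is the range that holds TPT1, the median was -0.70 for 13 genes, against -0.13 for all 473. At 100 normalized CPM and over, the median was -0.12 for 16 genes, of which 12 were lower, against 0.04 for all 882. This mean includes the SIRT6-inhibited libraries, so a gene that is lower in them is moved towards a lower range by its own change. TPT1, with a control mean of 149.8, is placed in this way as well. Whether the fold change of the class depends on the level can therefore not be read from these ranges.

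Several genes with low fold changes in the class had few counts in the SIRT6-inhibited libraries. RPS26, of the small subunit, had 133 and 182 counts in control libraries and 12 and 0 in SIRT6-inhibited libraries, and RPS23 had 159 and 127 against 13 and 0. RPL35, of the large subunit, had 124 and 145 counts in control libraries and 24 and 14 in SIRT6-inhibited libraries, with log2FC -2.71 (SE 0.90, adjusted p = 0.487). RPL26 had 99 and 116 against 21 and 14 counts, with log2FC -2.52 (SE 0.96, adjusted p = 0.523). In each of these genes both SIRT6-inhibited libraries were below both control libraries, as in TPT1. Other genes had more counts and smaller differences. RPL6 had 318 and 382 counts in control libraries and 112 and 171 in SIRT6-inhibited libraries, with log2FC -1.32 (SE 0.38, adjusted p = 0.460). RPS4X had 771 and 773 against 266 and 547 counts, with log2FC -0.96 (SE 0.28, adjusted p = 0.460). The groups did not overlap in these genes either. Among other genes with unadjusted p below 0.05, log2FC values were -1.35 for RPL10, -0.76 for RPL7, -0.70 for RPS10 and -0.69 for RPL11. The most abundant members were not lower to this degree. RPLP0, of the ribosomal stalk, had 657 and 728 normalized CPM in control and 657 and 821 in SIRT6-inhibited libraries, with log2FC 0.09 (SE 0.15, adjusted p = 0.980). RPS3 had a log2FC of -0.07, which became 0.11 with scaling by GAPDH. With RPLP0, the 4 higher genes were RPS28, RPL30 and RPS20, named here after their values were seen, and the highest log2FC was 0.33 for RPS20. Ribosomal protein genes also have processed pseudogenes in number, so their counts share the uncertainty of TPT1.

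Of the translation factors and RNA-binding proteins with TOP mRNAs, all but 1 of those tested were closer to their control level than TPT1. Of 28 such genes 9 were tested, with 7 lower and 2 higher and a median log2FC of -0.24. The median was -0.38 without control replicate 2, -0.11 without SIRT6-inhibited replicate 1 and -0.08 with scaling by GAPDH. EEF1A1 and EEF1B2 encode subunits of elongation factor 1, and TPT1 protein is known to bind this complex. EEF1A1 had 1129 and 1438 normalized CPM in control and 1053 and 1192 in SIRT6-inhibited libraries, with log2FC -0.19 (SE 0.15, adjusted p = 0.873), and the groups overlapped. This was -0.37 without control replicate 1, with unadjusted p below 0.05, -0.013 without control replicate 2 and -0.11 without SIRT6-inhibited replicate 1. EEF1B2 had 271 and 274 counts in control libraries and 187 and 272 in SIRT6-inhibited libraries, with log2FC -0.24 (SE 0.35, adjusted p = 0.977), which was -0.44 and -0.033 without control replicates 1 and 2. In this list 1 lower and 1 higher gene had unadjusted p below 0.05. Among the settings that kept all 4 libraries, the higher gene did not have it with library totals alone, scaling by the reference genes, the replicate block or DESeq2's Wald test. Neither gene had it with scaling by GAPDH. SLC25A6, a mitochondrial ADP/ATP carrier, had 247 and 297 normalized CPM in control and 178 and 141 in SIRT6-inhibited libraries, with log2FC -0.77 (SE 0.22, adjusted p = 0.460). EIF3L, a subunit of initiation factor 3, had 246 and 272 against 344 and 355 normalized CPM, with log2FC 0.43 (SE 0.17, adjusted p = 0.531). BTF3, a subunit of the nascent polypeptide-associated complex, was the most abundant of the list, with 5245 and 4663 normalized CPM in control and 4876 and 5256 in SIRT6-inhibited libraries. The gene of the list with a lower log2FC than TPT1 was RACK1, named after its values were seen, with 84, 85, 24 and 0 counts.

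**Figure D4:**
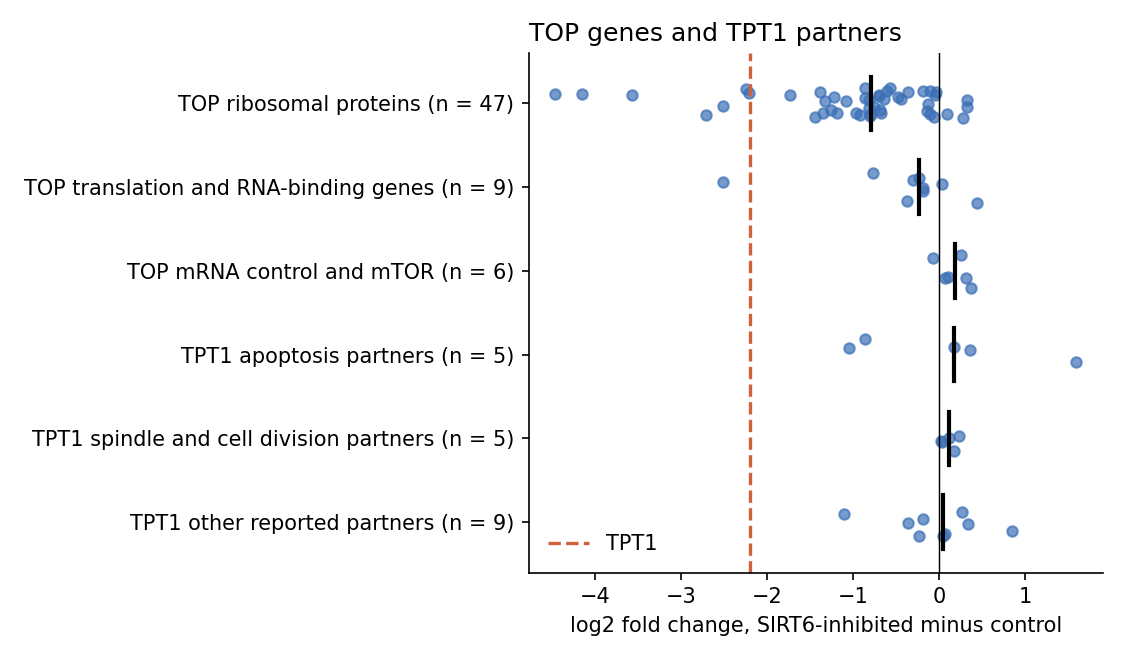
Log2 fold change (x axis, SIRT6-inhibited minus control) of each tested gene (points) in 6 lists (y axis). Black bars are list medians and the dashed orange line is TPT1 at -2.20. Medians are -0.79 for the ribosomal proteins, -0.24 for the other TOP genes and between 0.05 and 0.18 for the remaining lists, whose genes all lie to the right of TPT1.

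Few regulators of TOP mRNAs were tested. Of 24 genes of mTOR signalling and TOP mRNA control 6 were tested, 1 lower and 5 higher, with a median log2FC of 0.18, and 0 had unadjusted p below 0.05 in edgeR's quasi-likelihood test, DESeq2 or limma-voom. The median was -0.03 without control replicate 2, 0.11 and 0.09 without SIRT6-inhibited replicates 1 and 2, and 0.31 with scaling by GAPDH. RHEB, the GTPase that activates mTOR and a reported partner of TPT1 protein, had 1013 and 794 normalized CPM in control and 876 and 845 in SIRT6-inhibited libraries. Its log2FC was -0.07 (SE 0.15, adjusted p = 0.984) and became 0.08 with scaling by GAPDH. AKT1, a kinase upstream of mTOR, had 1721 and 1606 against 1548 and 1946 normalized CPM, with log2FC 0.07 (SE 0.14, adjusted p = 0.980). MTOR and LARP1 were not analysed here.

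Partners of TPT1 protein in cell survival and apoptosis had differing values. Of 15 genes 5 were tested, 2 lower and 3 higher, with a median log2FC of 0.17. The median was -0.33 without control replicate 1, -0.37 with limma-voom, 0.04 with the block of crossed numbers and 0.34 with scaling by GAPDH. BCL2L1, which encodes BCL-XL, had 2889 and 2916 normalized CPM in control and 3261 and 3289 in SIRT6-inhibited libraries, with log2FC 0.17 (SE 0.095, adjusted p = 0.652). This small difference had its groups apart, in the direction opposite to TPT1. XIAP, an inhibitor of caspases, had 588 and 328 counts in control libraries and 160 and 269 in SIRT6-inhibited libraries, with log2FC -1.05 (SE 0.32, adjusted p = 0.469). It was the only gene of this list with unadjusted p below 0.05 in edgeR's quasi-likelihood test, while DESeq2's Wald test gave this to BCL2L1 as well. Without control replicate 1 and with scaling by GAPDH, XIAP did not have it. MCL1 had 30 and 95 counts in control libraries and 0 and 87 in SIRT6-inhibited libraries. MDM2, a ubiquitin ligase, had 11 and 37 against 24 and 149 counts. The groups of MCL1 and MDM2 overlapped (adjusted p = 0.984 and 0.874). MDM2 had unadjusted p below 0.05 without SIRT6-inhibited replicate 1, and MCL1, then lower, without SIRT6-inhibited replicate 2, where the SIRT6-inhibited library left had 0 counts of it.

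Genes of the spindle and of cell division are linked to TPT1 protein. Of 16 such genes 5 were tested, and all 5 were higher, with a median log2FC of 0.11 and 0 unadjusted p below 0.05 in edgeR's quasi-likelihood test. With library totals alone 2 of the 5 were lower (median 0.055), and without SIRT6-inhibited replicate 1 it was 3 (median -0.0071). Without control replicate 1 it was 2. It was 1 with limma-voom, either block, scaling by the reference genes and totals without the 10 most abundant genes. The median was 0.21 without SIRT6-inhibited replicate 2 and 0.29 with scaling by GAPDH. TUBA1B, an alpha-tubulin, had 1595 and 1487 normalized CPM in control and 1789 and 1538 in SIRT6-inhibited libraries, with log2FC 0.11 (SE 0.12, adjusted p = 0.956). TUBA1A, another alpha-tubulin, had a log2FC of 0.035 that became -0.023 with library totals alone. Tubulin genes are near-identical in sequence, so reads may be split between them. PLK1 was not analysed here.

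Of 17 other reported partners 9 were tested, 4 lower and 5 higher, with a median log2FC of 0.05, which ran from -0.07 to 0.18 over the alternatives. It was -0.01 with library totals alone, 0.18 with scaling by GAPDH, -0.03 and 0.11 without control replicates 1 and 2, and 0.02 and -0.07 without SIRT6-inhibited replicates 1 and 2. POU5F1, the pluripotency factor whose transcription TPT1 protein has been reported to regulate, had 984 and 867 against 1238 and 1101 normalized CPM, with log2FC 0.34 (SE 0.13, adjusted p = 0.529). Its groups did not overlap, and its unadjusted p was below 0.05. Among the settings that kept all 4 libraries, POU5F1 did not have this with library totals alone, scaling by the reference genes or by GAPDH, or the replicate block. EEF1D, NPM1 and PRDX1 were not analysed here.

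The genes whose pattern over the 4 libraries was most like that of TPT1 were sought among the 882 other tested genes with a mean of at least 100 normalized CPM. Likeness was measured as the root mean square distance between log2(normalized CPM + 1) values after the mean of each gene was subtracted, and the median distance over the candidates was 1.16. HSP90B1, a chaperone of the endoplasmic reticulum, was nearest at 0.29. It had 409 and 722 normalized CPM in control and 219 and 123 in SIRT6-inhibited libraries, and its log2FC was -1.73 (SE 0.36). TOP2A, a DNA topoisomerase, followed at a distance of 0.43, with 153 and 142 normalized CPM in control and 75.1 and 39.1 in SIRT6-inhibited libraries. GDF9, a growth factor secreted by the oocyte, was at 0.46, with 1322 and 2986 against 977 and 393 normalized CPM. PDIA3, a protein disulfide isomerase, was at 0.48, with 262 and 437 against 172 and 116 normalized CPM. The fifth was ACTR3, a subunit of the actin-nucleating Arp2/3 complex, at 0.51, with 122 and 187 against 57.1 and 62.0 normalized CPM. All 5 were chosen for this likeness. The cut at 100 normalized CPM lies above the mean of TPT1 itself, 91.2, and 0 of the 918 tested genes above that mean had a lower log2FC. That TPT1 had a lower log2FC than each of the 5 was therefore fixed by the cut. The mean includes the SIRT6-inhibited libraries, so a gene can be moved below the cut by its own change. Except in ACTR3, SIRT6-inhibited replicate 2 was the lowest library, as in TPT1.

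**Figure D5:**
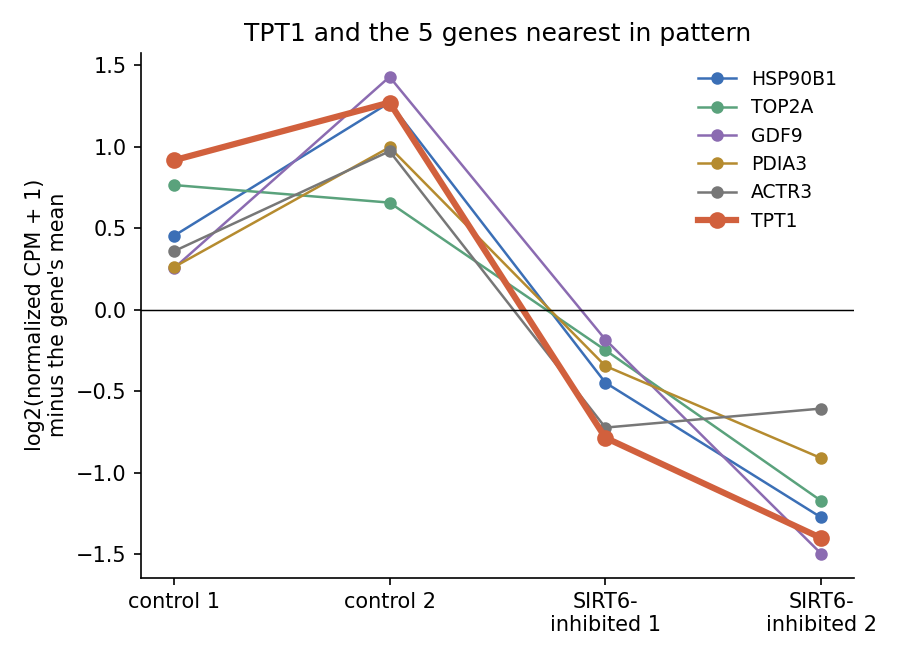
Levels of TPT1 (thick orange line) and of the 5 genes nearest in pattern (thin lines), as log2(normalized CPM + 1) minus the mean of each gene (y axis), in the 4 libraries (x axis). Lines only join the points of a gene. Distances to TPT1 run from 0.29 for HSP90B1 to 0.51 for ACTR3.

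Reference genes, taken as 8 listed of 12, had a median log2FC of -0.12, which ran from -0.49 to 0.02 over the alternatives. It was -0.49 without SIRT6-inhibited replicate 1, -0.31 without SIRT6-inhibited replicate 2, -0.26 without control replicate 1 and 0.02 with scaling by GAPDH. GAPDH itself had 57.2 and 74.8 normalized CPM in control and 46.6 and 76.4 in SIRT6-inhibited libraries, with log2FC -0.10 (SE 0.39, adjusted p = 0.992). PPIA had a log2FC of -0.11, which became 0.03 with scaling by GAPDH. The groups overlapped in both, while TPT1 was lower in the same libraries. Not all of the list was this close to its control level, as 6 of the 8 genes were lower and 2 higher. HPRT1, described at the end, had a log2FC of -0.91 with its groups apart. YWHAZ, named after its values were seen, had 52 and 147 counts in control libraries and 32 and 69 in SIRT6-inhibited libraries. Its log2FC was -1.11 (SE 0.92) and its groups overlapped. TOP2B, the most abundant of this list, had a log2FC of 0.10. ACTB was not analysed here.

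Oocyte markers were counted in every library. All 14 listed genes of 24 were tested, and their summed level was 120002 and 118008 normalized CPM in control and 123310 and 127125 in SIRT6-inhibited libraries. WEE2, an oocyte kinase that holds meiotic arrest, was the most abundant. The list had 7 lower and 7 higher genes and a median log2FC of -0.0017, which was 0.19 with scaling by GAPDH and -0.49 without SIRT6-inhibited replicate 1. Of these genes GDF9 and the zona pellucida gene ZP2 were lower and WEE2 higher at unadjusted p below 0.05, and 0 passed adjustment in edgeR's quasi-likelihood test, 1 (WEE2) in DESeq2's Wald test and 0 in limma-voom. In edgeR's test 2 passed with no filter and 2 without SIRT6-inhibited replicate 1, and 1 without SIRT6-inhibited replicate 2 and with either block, GDF9 in each case among them. KPNA7, an oocyte importin, had a log2FC of 0.07. The summed level of the oocyte markers was close to equal in the groups where TPT1 was not. Most of this sum came from WEE2, KPNA7, H1FOO and BMP15, with control means of 39874.1, 26898.8, 23124.5 and 17774 normalized CPM. The sum therefore says little of the less abundant markers, such as GDF9 with a log2FC of -1.65.

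Cumulus cells surround the oocyte during maturation, and the level of their markers was summed in each library. Of 24 cumulus and granulosa cell markers 21 were listed, 6 of them at 0 in every library, including the gonadotropin receptors FSHR and LHCGR and the expansion gene TNFAIP6. Summed over the list, the level was 267 and 284 normalized CPM in control replicates 1 and 2, and 129.8 and 274 in SIRT6-inhibited replicates 1 and 2. VCAN, a matrix proteoglycan, was the most abundant, with 82.6 and 136 normalized CPM in control and 38.8 and 142 in SIRT6-inhibited libraries. Without VCAN the sum was 185 and 147 normalized CPM in control and 91.0 and 132 in SIRT6-inhibited libraries, so that both SIRT6-inhibited libraries were then below both control libraries. PGR, the progesterone receptor, had a log2FC of -0.64. Of the 10 tested genes 8 were lower and 2 higher, with a median log2FC of -0.62, and 0 had unadjusted p below 0.05 in edgeR or DESeq2 (1 in limma-voom, SERPINE2). The median was -0.34 without SIRT6-inhibited replicate 1, where SERPINE2 had unadjusted p below 0.05 in edgeR too, and -1.38 without SIRT6-inhibited replicate 2, where VCAN and PGR had unadjusted p below 0.05. PTGS2, an expansion gene named after its values were seen, had 22 and 12 counts in control libraries and 0 in both SIRT6-inhibited libraries, which is at least 5.22-fold lower against a floor of 3 counts per library. With PTGS2 set at this bound the median of the list stayed -0.62. The 2 higher genes, also named after their values were seen, had few counts too. CYP11A1 had 0 and 9 counts in control libraries and 13 and 56 in SIRT6-inhibited libraries, with its groups apart. Its log2FC was 2.62 (SE 2.29, edgeR's quasi-likelihood test, adjusted p = 0.906). NR5A2 had 14 and 0 counts against 0 and 32, and its groups overlapped. The part of cumulus cell RNA in the TPT1 level was not tested.

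Most blood and stroma markers were at 0. Of 13 listed genes 9 had 0 counts in every library, among them the haemoglobin gene HBB, and the summed level was 34.5 and 44.5 normalized CPM in control and 39.4 and 34.8 in SIRT6-inhibited libraries. PECAM1, an endothelial gene, was the most abundant, with 69 and 111 counts in control libraries and 77 and 93 in SIRT6-inhibited libraries. COL1A2, a collagen gene, had 79 and 40 against 50 and 74 counts and a log2FC of 0.13. The summed level did not separate the groups.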

How the data were processed

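RNA-seq of porcine M II oocytes was analysed from raw read counts per gene symbol, which the authors deposited as whole numbers without normalization for 2 control and 2 SIRT6-inhibited libraries. The labels give Smart-seq2 amplification and a NEBNext Ultra library, while the paper gives column extraction before the same library kit and does not name Smart-seq2. The submitters' processing notes list TopHat2 2.0.13, Cufflinks 2.2.1, Cuffnorm and Cuffdiff. The tool and strand setting of the counting were not given in the sources used here. Of 4381 symbols 4299 matched the RefSeq annotation of Sscrofa11.1, which was used for names and for the position and neighbours of TPT1.

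The software was edgeR 4.0.16, DESeq2 1.42.0 and limma 3.58.1 under R 4.3.3. Low genes were removed with filterByExpr of edgeR (min.count 10, min.total.count 15). Totals were scaled by TMM factors of 0.997 and 1.04 (control) and 0.994 and 0.966 (SIRT6-inhibited). The comparison used the quasi-likelihood test of edgeR (glmQLFTest), with p-values adjusted by Benjamini-Hochberg over all 2387 genes. Standard errors were obtained as |log2FC| over the root of the F statistic. A level under 3 counts, which is 0.646 and 0.881 CPM in the control and 0.926 and 0.603 CPM in the SIRT6-inhibited libraries, could not be told from 0, and this floor covers counting error only. The fit was tested on simulated data.

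TPT1 and the lists were chosen with earlier results of these data known, and the lists were written by hand. The genes named are TPT1, list members with an unadjusted p-value under 0.05, reported partners of TPT1 protein, LARP1, MTOR, ACTB and GAPDH, the 2 most abundant members of each list, listed neighbours and the 5 genes nearest in pattern. Some genes that meet this rule are not reported here. Levels are not divided by transcript length, so they are compared between libraries and not between genes. Alternatives were the other scalings, DESeq2's Wald test, limma-voom, a replicate block, no filter, a stricter filter (10 counts or more in all 4 libraries) and the omission of single libraries. Scaling by GAPDH and a block with crossed numbers were added after seeing the data. TPT1 sequences were not used here, nor were the PCR, imaging and blot data.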

Additional observations from a re-analysis of the deposited data

How the results depend on the processing

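The log2FC of TPT1 stayed between -2.55 and -1.91 in all 16 alternatives, where the SD of its log2 level within groups was 0.36. With 2 libraries a group, leaving 1 out cannot move a group mean by more than this SD, so the SD does not measure stability there. The log2FC of TPT1 was -2.20 both with no filter and with the stricter filter of 10 counts in every library, -2.18 with DESeq2 and -2.26 with limma-voom. Where 1 library was left out, the lone library of its group was assumed to vary like the other group. With 2 libraries a group, errors are wide, and genes with few counts were not measured well enough to show small differences.

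The number of genes with adjusted p below 0.05 was 0 in edgeR's quasi-likelihood test. It was 43 without a filter, 2 with at least 10 counts in every library, 37 with DESeq2's Wald test and from 0 to 77 when single libraries were omitted. It was 77 without SIRT6-inhibited replicate 1. The number with unadjusted p below 0.05, 216, was 75 with scaling by GAPDH and from 111 (without control replicate 2) to 302 (without SIRT6-inhibited replicate 1) when single libraries were omitted. The median log2FC of the ribosomal protein list was -0.60 with scaling by GAPDH, and in the other alternatives it ran from -0.92 to -0.63. The cause was not tested for any of these. Among the named genes, leaving aside those named only for their likeness to TPT1, WEE2 and RPS26 passed adjustment with DESeq2, RPS23, RPS26 and GDF9 with no filter, GDF9 with either block and without either SIRT6-inhibited library, and RACK1, RPL35, RPS23, RPS26 and HPRT1 without SIRT6-inhibited replicate 1, where RACK1, RPS23 and RPS26 had 0 counts in the SIRT6-inhibited library left.

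Whether libraries with the same number share a batch was not given in the sources used here, and their deviations from the group means had a correlation of -0.123 across genes. With the replicate block, TPT1 had log2FC -2.22 (SE 0.41), adjusted p was below 0.05 for 6 genes and unadjusted p for 176. A replicate block with crossed numbers, added once the data had been seen, gave 2 and 241.

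Some named genes changed sign. MCL1, at -0.86 with few counts, was at 0.48 without control replicate 2 and 0.12 without SIRT6-inhibited replicate 1, while the fitted -8.98 without SIRT6-inhibited replicate 2 depends on the small count added by the model, as the library left had 0 counts of it. With library totals alone BTF3 was at -0.025 and TUBA1A at -0.023. With limma-voom GTF2F2 was at -0.049 and PECAM1 at 0.041. With scaling by GAPDH, RHEB was at 0.076, RPS3 at 0.11, PPIA at 0.034 and PECAM1 at 0.17. When single libraries were omitted, log2FC ran from -0.24 to 0.11 for RHEB, -0.105 to 0.22 for AKT1, -0.50 to 0.21 for GAPDH and -0.26 to 0.038 for PPIA. They ran from -0.032 to 0.24 for TOP2B, -0.26 to 0.31 for GTF2F2, -0.078 to 0.24 for RPLP0, -0.23 to 0.101 for RPS3, -0.055 to 0.11 for BTF3 and -0.0071 to 0.21 for TUBA1B. The ranges were -0.12 to 0.17 for TUBA1A, -1.497 to 0.37 for VCAN, -0.54 to 0.53 for PECAM1, -0.60 to 0.97 for RPL30 and -0.14 to 0.45 for COL1A2. The cause was not tested.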

Other observations

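HPRT1, an enzyme of purine salvage that is often used as a reference gene, was lower in each SIRT6-inhibited library than in any control library. It had 626 and 555 counts in control replicates 1 and 2, and 312 and 283 counts in SIRT6-inhibited replicates 1 and 2. The log2FC was -0.91 (SE 0.32, edgeR's quasi-likelihood test, adjusted p = 0.505), and its unadjusted p-value was under 0.05. Without SIRT6-inhibited replicate 1 it passed adjustment in the same test, and over all alternatives its adjusted p-value ran from 0.0464 to 1. HPRT1 is 1 of the 8 reference genes whose summed counts were used as a scaling for TPT1, though most of that sum came from TOP2B.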
